A study of Mus musculus with 24 samples.

Results

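The RGS genes (regulators of G protein signalling) described here are the 8 members named Rgs1, Rgs2, Rgs3, Rgs10, Rgs14, Rgs16, Rgs18 and Rgs19. They were taken by gene name from a table of 38215 genes, which holds 20 genes named Rgs with a number. NK cells, the cytotoxic innate lymphocytes, were profiled by bulk RNA sequencing in 24 mouse libraries, 4 in each of 6 groups. The groups cross genotype, wild type (WT) or knockout of FcRγ (KO), with 3 states: naive spleen, spleen with IL-15 treatment, and lung bearing a tumour. FcRγ is the signalling adaptor encoded by Fcer1g. The series title asks how FcRγ shapes expression in naive and IL-15-treated NK cells.

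The group names used below are naive WT, naive KO, IL-15 WT, IL-15 KO, lung WT and lung KO. The lung libraries carry the treatment label Naive, so the labels give them no IL-15. The labels do not say how the Fcer1g allele was made, in which strain, at what age, how IL-15 was given, or which tumour the lungs bore. They speak of biological replicates, 4 for each group, without naming animals, so p-values measure the spread between these samples. In every lung comparison with spleen, the tissue, the tumour and the way cells were isolated cannot be told apart. In bulk samples, fewer cells of a type and less RNA per cell cannot be told apart either.

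RGS proteins speed the hydrolysis of GTP on Gα subunits and so shorten signals from G protein-coupled receptors, among them the chemokine and sphingosine 1-phosphate receptors that steer lymphocytes. Most of the members here act on Gαi and Gαq, and Rgs2 is best known for its preference for Gαq. In lymphocytes Rgs1 and Rgs16 are known as inducible genes that dampen migration towards chemokines, while Rgs10, Rgs14 and Rgs19 are usually described as constitutive. Rgs18 is best known from platelets and their precursors.

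Depth and purity were checked once for all groups. Library totals ran from 9.68 M to 32.10 M counts. The shallowest libraries were naive KO replicate 1 at 9.68 M and lung WT replicate 1 at 9.77 M. Fcer1g stood at 730, 274 and 595 CPM (counts scaled to a common library size, mean of 4) in naive, IL-15 and lung WT, and at 3.77, 5.65 and 14.3 CPM in the matching KO groups. All 13 NK cell markers, such as Ncr1 and Eomes, reached 1 CPM in every group, with a summed level of 18990 to 25525 CPM in naive spleen, 10104 to 12153 CPM in IL-15 spleen and 14932 to 20752 CPM in lung. The 10 markers of dividing cells summed to 73.5 to 114 CPM in naive and 1845 to 2399 CPM in IL-15 libraries, and their part in the IL-15 changes below was not tested. Markers of other cells were higher in lung: the 12 monocyte and macrophage genes summed to 7.05 to 27.7 CPM in spleen, 60.7 to 141 CPM in lung WT and 159 to 663 CPM in lung KO. The 8 melanocytic genes summed to at most 3.88 CPM in spleen, 2.81 to 25.1 CPM in lung WT and 13.0 to 68.7 CPM in lung KO. All 10 endothelial genes reached 1 CPM in both lung groups against 1 to 3 of 10 in the spleen groups.

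Positions are from the GRCm38 build, and 4 of the 8 members share chromosome 1 with Fcer1g, which lies at chr1:171229572-171234365. Rgs2 (ENSMUSG00000026360, chr1:143999338-144004161), Rgs1 (ENSMUSG00000026358, chr1:144243972-144249242) and Rgs18 (ENSMUSG00000026357, chr1:144752683-144775435) lie in 1 run on the minus strand. Rgs13 is the fourth gene of that run, between Rgs2 and Rgs1, and had 1 count in 1 of the 24 libraries. The only other gene that the annotation places between Rgs2 and Rgs18 is a small nuclear RNA with 0 counts. Rgs16 (ENSMUSG00000026475, chr1:153740349-153745468, plus strand) stands 42.7 kb from Rgs8. Measured to Fcer1g, the gaps are 27.2 Mb for Rgs2, 27 Mb for Rgs1, 26.5 Mb for Rgs18 and 17.5 Mb for Rgs16. The other members are spread out: Rgs3 (ENSMUSG00000059810, chr4:62559847-62703018, plus strand), Rgs10 (ENSMUSG00000030844, chr7:128373621-128418758, minus strand), Rgs14 (ENSMUSG00000052087, chr13:55369732-55384687, plus strand) and Rgs19 (ENSMUSG00000002458, chr2:181688419-181693977, minus strand).

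The promoters of Rgs2 and Rgs16 are printed because these genes moved most between states, in opposite directions under IL-15. Each window holds the 250 bases before the start in RefSeq (GRCm38.p6), 5′ to 3′ on the gene's strand, at chr1:144004150-144004399 on the minus strand for Rgs2 and chr1:153740103-153740352 on the plus strand for Rgs16. Capitals mark TGACG on either strand, the core of the cAMP response element, and TAAAAG on the gene's strand, both motifs chosen after the sequences were seen.
Rgs2: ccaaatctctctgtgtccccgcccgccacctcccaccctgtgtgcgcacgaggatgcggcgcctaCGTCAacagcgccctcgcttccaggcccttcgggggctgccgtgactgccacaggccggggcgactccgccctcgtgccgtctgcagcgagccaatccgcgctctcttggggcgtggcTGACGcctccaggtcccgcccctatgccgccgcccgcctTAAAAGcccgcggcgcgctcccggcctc
Rgs16: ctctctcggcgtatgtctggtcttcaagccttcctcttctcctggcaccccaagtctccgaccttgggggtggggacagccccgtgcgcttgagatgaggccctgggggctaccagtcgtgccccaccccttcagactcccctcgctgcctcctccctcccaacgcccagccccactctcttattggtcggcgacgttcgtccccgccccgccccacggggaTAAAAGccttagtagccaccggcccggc
Both windows hold TAAAAG with its first base 28 bases before the start, and 7.71% of 32536 RefSeq windows of this length hold it anywhere. Rgs2 has TGACG at 2 places, its first bases 185 and 67 bases before the start, and Rgs16 has none, against 17.9% of windows with at least 1. RefSeq gave 8 windows for 5 of the 8 members (Rgs2, Rgs3, Rgs10, Rgs16 and Rgs19). None of the 8 held the STAT motif TTCNNNGAA, the AP-1 motif TGANTCA or the full element TGACGTCA on either strand, which 7.04, 6.73 and 1.56% of all windows hold. The NFAT motif GGAAA, present in 55.7% of windows, occurred in 3 of the 8, at Rgs3 and Rgs19. Because TAAAAG and TGACG were picked from the printed windows, their shares do not measure how unusual those matches are. These matches are descriptions of the letters only.

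The 8 genes differed widely in level and in how much they moved. Dividing CPM by the length of the main transcript, so that genes can be compared, Rgs3 led in naive WT at 56.3 ± 5.13 CPM per kb (SD, n = 4), ahead of Rgs19 at 40.2 ± 2.32. Rgs2 at 29.6 ± 3.23 and Rgs14 at 29.0 ± 1.26 CPM per kb were close to each other. Rgs1 at 9.65 ± 2.89, Rgs10 at 7.76 ± 1.03, Rgs18 at 6.0 ± 0.802 and Rgs16 at 1.40 ± 0.396 CPM per kb made up the lower end. In lung WT the order was different: Rgs2 stood at 244 ± 40.4 and Rgs1 at 165 ± 16.8 CPM per kb, above Rgs3 at 70.5 ± 4.45 and Rgs16 at 51.7 ± 2.19. Summed over the 8 genes, the level was 180 ± 5.35 CPM per kb in naive WT, 189 ± 2.85 in IL-15 WT and 606 ± 53.6 in lung WT. The KO groups stood at 177 ± 4.28, 184 ± 4.00 and 516 ± 9.24 CPM per kb. Rgs3 alone was 31.3% of that sum in naive WT and 35.8% in IL-15 WT, but 11.7% in lung WT, where Rgs2 was 40.1% and Rgs1 27.1%. Rgs16 was 0.779% of the sum in naive WT, 17.3% in IL-15 WT and 8.59% in lung WT.

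**Figure D1:**
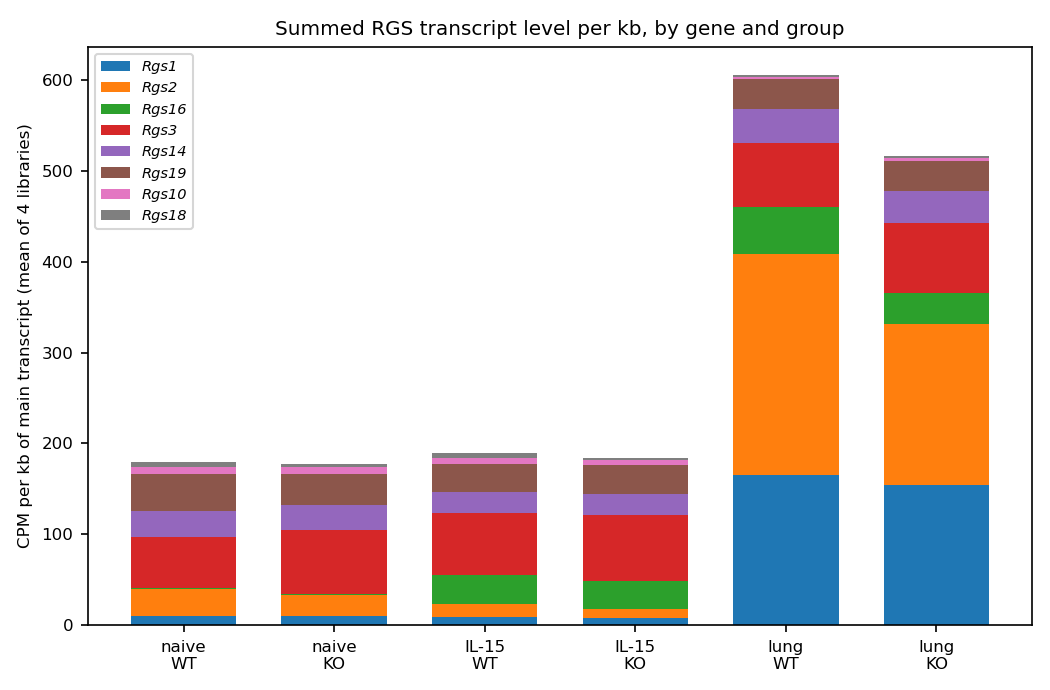
Stacked mean level of the 8 RGS genes per kb of main transcript (vertical axis, CPM per kb) in the 6 groups of 4 libraries. The lung bars reach 606 (WT) and 516 (KO) against 177 to 189 in the spleen groups, and most of the added height is Rgs2 and Rgs1.

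**Figure D2:**
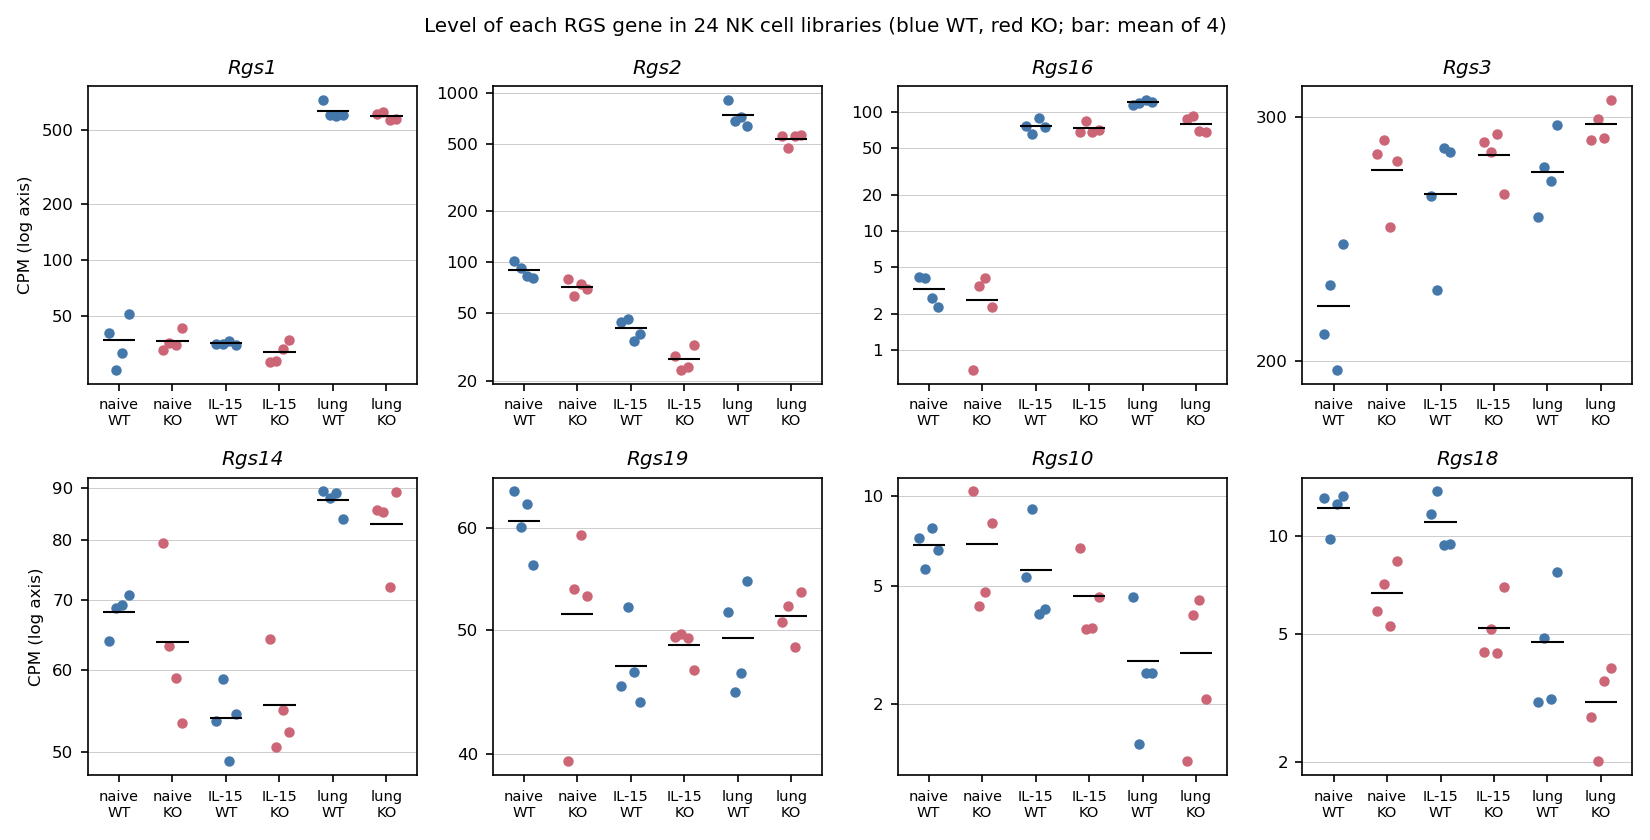
CPM of each RGS gene (log axes that differ between panels) in every library, blue for WT and red for KO, with a bar at the mean of 4. Rgs1 and Rgs2 stand high only in lung, Rgs16 in both IL-15 and lung, while all 24 libraries lie between 197 and 309 CPM for Rgs3 and between 39.5 and 64.1 CPM for Rgs19.

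Rgs1 was the clearest lung gene of the 8. It encodes a regulator that limits chemokine-driven migration. In spleen the library values were 40.4, 25.5, 31.4 and 51.0 CPM in naive WT, 32.7, 35.8, 34.7 and 42.7 in naive KO, 35.4, 35.2, 36.4 and 34.8 in IL-15 WT, and 28.0, 28.5, 33.2 and 37.2 in IL-15 KO. In lung they were 729, 601, 593 and 605 CPM in WT and 606, 627, 563 and 574 in KO. The lowest lung library, at 563 CPM, was therefore above the highest spleen library, at 51.0 CPM. Against naive spleen, Rgs1 rose by 4.09 ± 0.16 log2 units (± standard error) in WT lung, a 17.0-fold difference (edgeR, adjusted p = 4.09e-16), and by 4.02 ± 0.16 in KO lung (adjusted p = 8.95e-16). Against IL-15 spleen it rose by 4.15 ± 0.16 in WT and 4.22 ± 0.16 in KO (adjusted p = 1.54e-16 and 1.16e-16). IL-15 itself left no call on Rgs1, with changes of −0.15 ± 0.17 in WT (adjusted p = 0.48) and −0.27 ± 0.17 in KO (adjusted p = 0.212). The order of its group means was lung WT, lung KO, naive WT, naive KO, IL-15 WT and IL-15 KO, and only the step between lung and spleen had no overlap of libraries.

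Rgs2 moved both ways, down with IL-15 and up in lung. Its product favours Gαq, the subunit that couples receptors to phospholipase C. Naive WT libraries held 102, 92.3, 82.7 and 80.7 CPM, and IL-15 WT libraries 44.4, 46.5, 34.3 and 37.5 CPM. In KO the values were 79.1, 63.1, 74.3 and 69.6 CPM when naive, and 28.0, 23.1, 23.9 and 32.5 CPM with IL-15. Every IL-15 library was below every naive library. Rgs2 fell with IL-15 by 1.22 ± 0.14 log2 units in WT (edgeR, adjusted p = 5.11e-07) and by 1.48 ± 0.14 in KO (adjusted p = 7.04e-08). Lung libraries held 914, 684, 719 and 636 CPM in WT and 553, 473, 558 and 564 CPM in KO, all above the highest spleen library at 102 CPM. Relative to naive spleen the rise was 3.05 ± 0.14 log2 units in WT and 2.91 ± 0.14 in KO (adjusted p = 4.85e-15 and 1.74e-14), and relative to IL-15 spleen 4.18 ± 0.15 and 4.32 ± 0.15 (adjusted p = 2.24e-17 and 2.43e-17). Rgs2 was the only member whose 6 groups stood in an order with no overlap at any step: lung WT, lung KO, naive WT, naive KO, IL-15 WT, IL-15 KO. How many of all genes stand in such an order was not counted. The highest group mean of Rgs2 was 27.5 times the lowest.

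Rgs16 rose in both IL-15 spleen and lung from a very low naive level. It encodes a regulator of Gαi and Gαq signals that is induced in activated lymphocytes. Naive libraries held 4.12, 4.01, 2.71 and 2.27 CPM in WT and 0.675, 3.43, 4.01 and 2.30 CPM in KO, where the lowest value, from the shallow naive KO replicate 1, rests on 7 counts. With IL-15 the values were 77.1, 65.1, 89.6 and 75.4 CPM in WT and 68.8, 84.7, 67.9 and 70.5 in KO. In lung they were 116, 119, 128 and 121 CPM in WT and 88.2, 92.6, 69.4 and 68.7 in KO. No IL-15 or lung library came near the naive range. IL-15 raised Rgs16 by 4.47 ± 0.28 log2 units in WT, 22.1-fold, and by 4.65 ± 0.29 in KO, 25.0-fold (edgeR, adjusted p = 2.75e-10 and 2.48e-10). Lung against naive spleen gave 5.21 ± 0.26 in WT and 4.84 ± 0.26 in KO (adjusted p = 2.76e-14 and 1.76e-13). Lung stood above IL-15 spleen in WT, by 0.66 ± 0.21 (adjusted p = 0.0124), but in KO the difference of 0.13 ± 0.21 was not called (adjusted p = 0.654) and the libraries overlapped. These lung comparisons share their libraries with each other, and the IL-15 comparisons share the naive groups.

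**Figure D3:**
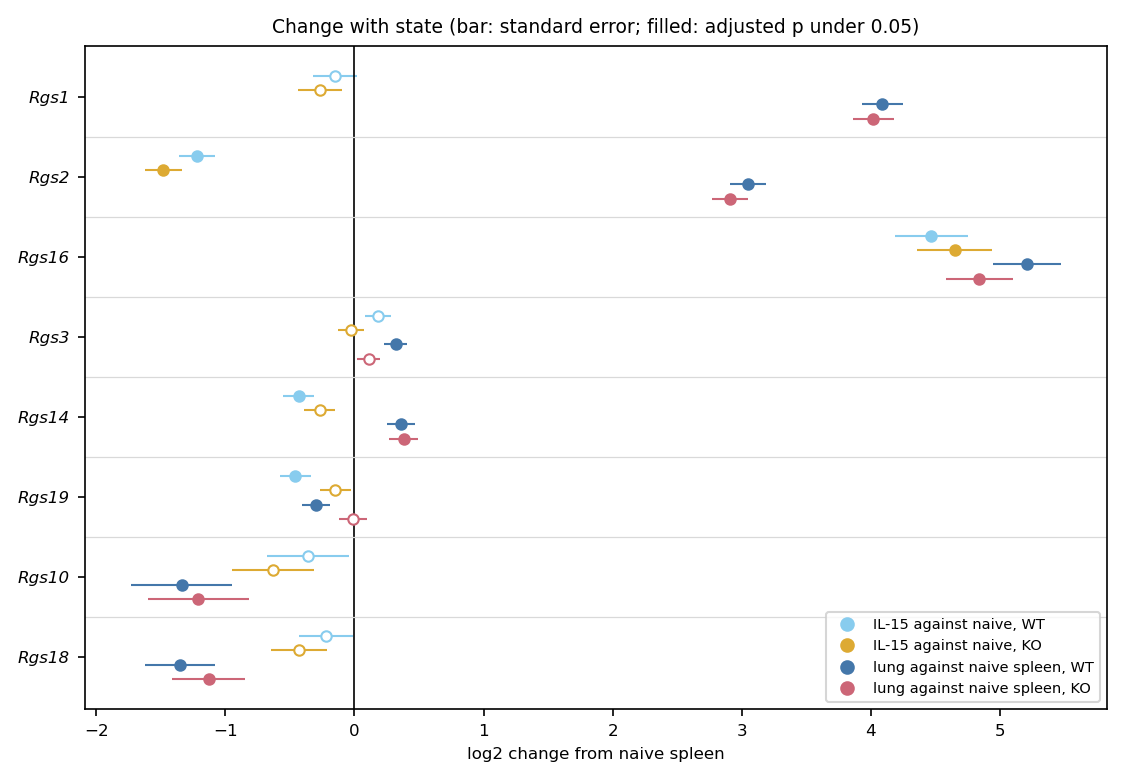
log2 change from naive spleen (horizontal axis) of each RGS gene under IL-15 and in tumour-bearing lung, in WT and KO; bars are standard errors and filled points have an adjusted p under 0.05. Rgs16 is high in all 4 comparisons, Rgs1 only in lung, and Rgs2 is below 0 under IL-15 and near 3 in lung.

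All 8 members passed the filter on low counts in every comparison. Counted over them, IL-15 against naive called 1 higher (Rgs16) and 3 lower (Rgs2, Rgs14, Rgs19) in WT, where 26.5% of the 13344 genes tested were called higher and 26.0% lower. In KO it called 1 higher (Rgs16) and 1 lower (Rgs2), beside 20.8% and 20.9% of all genes. Lung against naive spleen called 5 higher and 3 lower in WT, beside 29.2% and 19.9% of 14275 genes, and 4 higher and 2 lower in KO, beside 24.3% and 18.1%. Lung against IL-15 spleen called 4 higher and 2 lower in WT (23.7% and 20.6% of all genes), and 3 higher and 1 lower in KO (23.3% and 20.5%). The median size of change over the members was 1.35 log2 units for lung against naive spleen in WT, against 0.59 over all genes, and 0.39 for IL-15 against naive in WT, against 0.61. With calls as frequent as this among all genes, the counts alone say little about the members. Their sizes differ more: in lung against naive spleen in WT, Rgs16, Rgs1 and Rgs2 stood at the 96.9, 95.5 and 93.0 percentile of all changes.

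The other members moved by less. Rgs14, a scaffold that binds Gαi and also Ras and Rap proteins, held 64.0 to 70.8 CPM in naive WT and 48.9 to 58.7 in IL-15 WT, and fell by 0.43 ± 0.12 log2 units (edgeR, adjusted p = 0.00622). In lung it held 84.0 to 89.3 CPM in WT and 72.1 to 89.2 in KO, and rose over naive spleen by 0.36 ± 0.11 and 0.38 ± 0.11 (adjusted p = 0.0093 and 0.0069). With an adjustment for gene length and GC content those lung changes were 0.15 and 0.24 and lost their calls (adjusted p = 0.272 and 0.0772); the WT call was also lost with no filter on low counts (0.29, adjusted p = 0.0567). Over IL-15 spleen Rgs14 rose by 0.70 ± 0.11 in WT and 0.58 ± 0.11 in KO (adjusted p = 1.21e-05 and 0.000123). Rgs19, also known as GAIP for its binding to Gαi3, held 56.1 to 64.1 CPM in naive WT. It fell by 0.46 ± 0.12 log2 units with IL-15 in WT (adjusted p = 0.00358), to 43.9 to 52.1 CPM, and by 0.30 ± 0.11 in WT lung (adjusted p = 0.0231). That lung call was lost without naive WT replicate 1 or 3 or lung WT replicate 2 or 3, where the adjusted p lay between 0.0523 and 0.0811. In KO neither Rgs19 difference was called (−0.15 ± 0.12, adjusted p = 0.323, and −0.01 ± 0.11, adjusted p = 0.967).

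Rgs10 and Rgs18, at low levels, were lower in lung. Rgs10, a small regulator with little beyond its RGS domain, held 5.70 to 7.82 CPM in naive WT and 1.47 to 4.58 CPM in lung WT, on 35 to 66 counts a library. It fell in lung by 1.34 ± 0.39 log2 units in WT and by 1.21 ± 0.39 in KO (edgeR, adjusted p = 0.00637 and 0.0137). The KO call was lost without naive KO replicate 1 (−0.95, adjusted p = 0.0524), which at 10.4 CPM was the highest of all 24 libraries, or without lung KO replicate 1 (−0.96, adjusted p = 0.0564). Against IL-15 spleen Rgs10 fell by 1.06 ± 0.39 in WT, with overlapping libraries (adjusted p = 0.0298), and the change in KO was −0.64 ± 0.38 (adjusted p = 0.184), called in 0 of 16 alternatives. The WT call was lost without any 1 of IL-15 WT replicate 2 and lung WT replicates 2, 3 and 4 (adjusted p from 0.0625 to 0.132). Rgs18 fell by 1.35 ± 0.27 log2 units in WT lung and by 1.13 ± 0.28 in KO lung against naive spleen (adjusted p = 0.000199 and 0.00187). With the length and GC adjustment the WT value was −0.62 (adjusted p = 0.0545). Against IL-15 spleen the Rgs18 changes were −1.21 ± 0.27 in WT (adjusted p = 0.000717) and −0.77 ± 0.27 in KO (adjusted p = 0.0247). The KO call was lost without IL-15 KO replicate 4, lung KO replicate 1 or lung KO replicate 2 (adjusted p from 0.0626 to 0.105). IL-15 against naive left no call on either gene with edgeR. Voom called Rgs10 in WT (−0.65, adjusted p = 0.0171) and Rgs18 in KO (−0.53, adjusted p = 0.0495), and Rgs18 in KO also passed without IL-15 KO replicate 4 (−0.60, adjusted p = 0.0478).

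Rgs3 was among the most even of the 8, its highest group mean 1.36 times its lowest, against 1.29 times for Rgs19. It is a large gene. RSEM, the counting tool, splits reads that match more than 1 feature. The Rgs3 count was not whole in any of the 24 libraries, whereas the other 7 members had whole counts throughout. An antisense gene on the opposite strand, Gm11209, overlaps Rgs3 and had up to 12 counts. Where the split reads come from was not tested. Naive WT libraries held 209, 227, 197 and 243 CPM, and the other 20 libraries held 225 to 309 CPM. The called rise of 0.32 ± 0.09 log2 units in WT lung over naive spleen (edgeR, adjusted p = 0.00456) turned into a fall of 0.59 (adjusted p = 7.59e-07) with the length and GC adjustment, which took the summed exon length of 10801 bases for Rgs3. The direction for Rgs3 therefore depends on that choice.

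The median size of change over the members for KO against WT was 0.26, 0.13 and 0.12 log2 units in naive spleen, IL-15 spleen and lung. Over all genes it was 0.34, 0.12 and 0.18, so the small KO values are not particular to the members. For WT and KO the member median was 0.39 and 0.35 with IL-15, against 0.61 and 0.48 over all genes. For lung against naive spleen it was 1.35 and 1.17, against 0.59 and 0.51. Single members differed: Rgs18 changed by −0.89 and −1.10 with KO in naive and IL-15 spleen. With IL-15 it changed by −0.22 in WT and −0.43 in KO. In naive spleen 1 member was called higher (Rgs3) and 1 lower (Rgs18), where 11.1% of all genes were called higher and 9.21% lower. Under IL-15 no member was called with edgeR, beside 0.0824% of genes higher and 0.0525% lower; 2 members had an unadjusted p under 0.05, and DESeq2 and voom each called 2. In lung 1 member was called, lower (Rgs16), where 0.289% of genes were called higher and 0.335% lower. Heat shock genes moved with genotype in naive spleen, with 9 of 12 called lower in KO. Sums of marker genes also stood apart between naive KO and naive WT: 18990 to 22289 against 23635 to 25525 CPM for NK cells, 754 to 955 against 511 to 736 CPM for dendritic cells, 131 to 231 against 80.4 to 127 CPM for basophils and mast cells, and 101 to 128 against 53.3 to 76.6 CPM for endothelium. Flt3, Xcr1, Clec9a and Cd209a of the dendritic list and Ms4a2, Fcer1a and Mcpt4 of the basophil and mast cell list were under 1 CPM in all 24 libraries. Most of the endothelial sum was Pecam1, at means of 64.6 CPM in naive WT and 106 CPM in naive KO. Vwf was at 1.97 and 5.13 CPM. Cdh5 and Kdr were at 0 CPM in naive KO, and Tek and Cldn5 at 0 CPM in both naive groups. In the NK cell list the largest difference in CPM was that of Gzma, at 8317 in naive WT and 5858 in naive KO. Itga2, Eomes and Il2rb had higher means in naive KO, and the other NK cell markers had lower means. The part of heat shock and marker genes in the member values was not tested.

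Rgs18 was lower in KO in spleen. Naive WT libraries held 13.1, 9.78, 12.6 and 13.3 CPM, and naive KO libraries 5.88, 7.12, 5.27 and 8.41 CPM. Under IL-15 the values were 11.7, 13.8, 9.37 and 9.43 CPM in WT and 4.39, 5.18, 4.35 and 6.95 CPM in KO. In both states every KO library was below every WT library. Of all 14275 genes, 9.25% had such a gap in naive spleen and 0.981% under IL-15. The naive difference was a fall of 0.89 ± 0.22 log2 units (1.85-fold; edgeR, adjusted p = 0.00788). Under IL-15 the change was −1.10 ± 0.22 and just missed the threshold (adjusted p = 0.0503); it was called by DESeq2 (adjusted p = 0.000333) and by voom (adjusted p = 0.00297), and in 5 of 17 alternatives in all, among them the fit without IL-15 KO replicate 4 (−1.27, adjusted p = 0.0305). Lung libraries overlapped, at 3.06, 4.84, 3.13 and 7.77 CPM in WT and 2.75, 2.01, 3.57 and 3.92 CPM in KO, on 26 to 202 counts, with a change of −0.63 ± 0.35 (adjusted p = 0.51). With the length and GC adjustment the naive change was −0.23 (adjusted p = 0.532), while under IL-15 it stayed between −1.27 and −0.90 over the 17 alternatives.

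Rgs18 is a platelet gene, and the 12 platelet markers also differed between groups. Their sum was 78.7 to 107 CPM in naive KO and 42.7 to 76.2 CPM in naive WT. Without Itgb3 the naive ranges overlapped, at 45.7 to 70.1 CPM in KO and 19.4 to 49.1 CPM in WT. Under IL-15 the other 11 markers together summed to at most 2.14 CPM, with Pf4, Ppbp, Gp9, Treml1, Clec1b and Tubb1 at 0 in both groups, and Itgb3 was at 226 and 258 CPM there. Rgs18 stood at 4.35 CPM or more in every IL-15 library. The part of platelet RNA in the naive Rgs18 values was not tested.

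Rgs2 was lower in KO in all 3 states, each time with every KO library below every WT library. Single comparisons did not pass the threshold: the change was −0.35 ± 0.13 log2 units for naive cells (edgeR, adjusted p = 0.0741), −0.61 ± 0.14 with IL-15 (adjusted p = 0.135) and −0.46 ± 0.13 for lung cells (adjusted p = 0.189). With the length and GC adjustment the naive change was −0.06 (adjusted p = 0.828). Voom passed the naive value (adjusted p = 0.0409), DESeq2 and voom the IL-15 value (0.0133 and 0.0106) and DESeq2 the lung value (0.0373). Without lung WT replicate 1, whose 914 CPM was the highest, the lung change was −0.34 and passed (adjusted p = 0.0258), in a fit that called 500 genes in place of 82. The share of all 14275 genes with KO below WT and no overlap was 9.25% for naive cells, 0.981% with IL-15 and 4.24% for lung cells. For all 3 states at once it was 0.105%, or 15 genes, Rgs2 and Fcer1g among them. The KO effect averaged over the 3 states, a contrast added after these values had been seen, gave a fall of 0.46 ± 0.07 log2 units for Rgs2 (adjusted p = 0.000215) and of 0.86 ± 0.16 for Rgs18 (adjusted p = 0.000733). Rgs3 rose by 0.18 ± 0.05 on that average (adjusted p = 0.0231), and Rgs16 was at −0.30 ± 0.13 (adjusted p = 0.114). In this contrast 8.38% of all genes were called higher and 6.15% lower, against 1 and 2 of the 8 members.

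**Figure D4:**
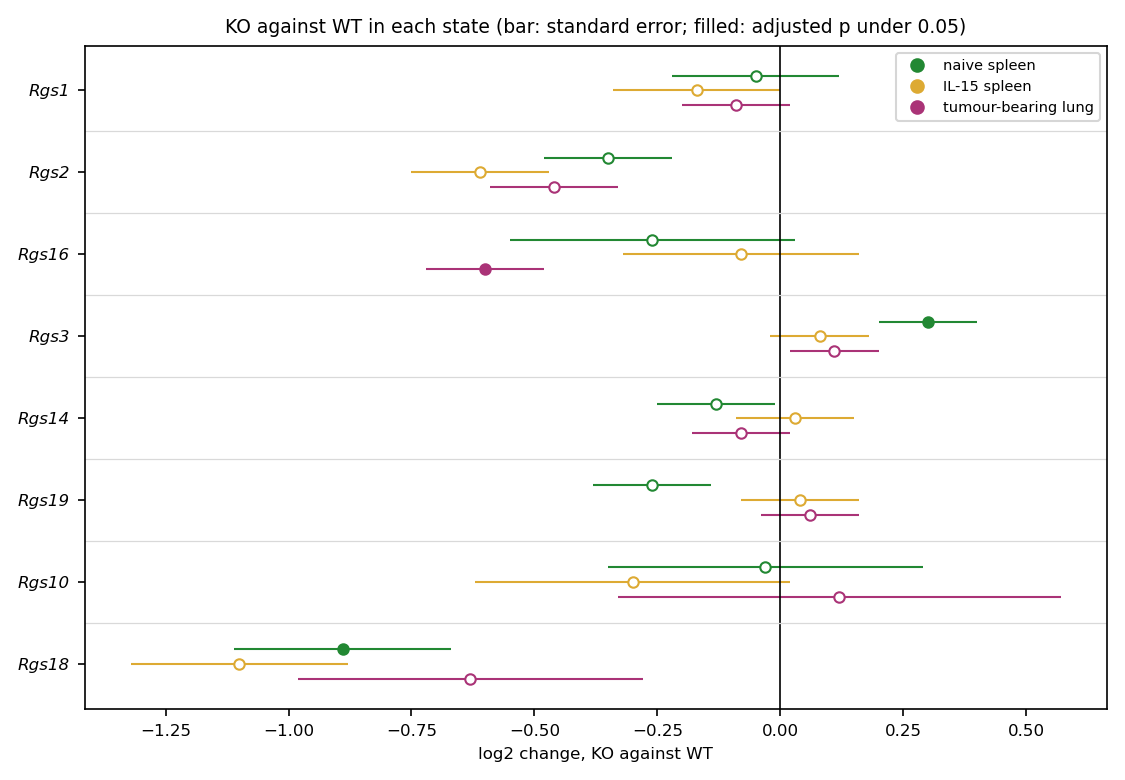
log2 change of KO against WT (horizontal axis) for each RGS gene in naive spleen, IL-15 spleen and lung; bars are standard errors and filled points have an adjusted p under 0.05. Rgs2 and Rgs18 lie left of 0 in all 3 states, Rgs16 at −0.60 in lung, and Rgs3 at 0.30 in naive spleen.

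Rgs16 was lower in lung KO than in lung WT. The 4 KO libraries, at 68.7 to 92.6 CPM, all lay below the 4 WT libraries, at 116 to 128 CPM. Such a gap was seen in 4.24% of all genes in lung. Rgs16 fell by 0.60 ± 0.12 log2 units, 1.52-fold (edgeR, adjusted p = 0.0482). This call was close to the threshold: over 17 alternatives the change stayed between −0.68 and −0.54, and it was called in 8. It was lost without any 1 of the lung libraries other than WT replicate 1 (adjusted p from 0.0621 to 0.203), with all 24 libraries in the fit (adjusted p = 0.243) and with a block by replicate number (adjusted p = 0.137). Without lung WT replicate 1, the only shallow library in this fit, the adjusted p was 0.00103. Leaving out both shallow libraries is the same fit here, and the 17 alternatives and 8 calls hold it under both names. In naive and IL-15 spleen the KO changes of Rgs16 were −0.26 ± 0.29 and −0.08 ± 0.24, neither called (adjusted p = 0.558 and 1). Heat shock genes moved in the same lung contrast, with 8 of 12 called lower in KO, as did the macrophage and melanocytic sums given above; their part in the Rgs16 value was not tested.

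Rgs3 rose in naive KO, from 197 to 243 CPM in WT to 250 to 289 CPM in KO, a change of 0.30 ± 0.10 log2 units (edgeR, adjusted p = 0.0327). The libraries did not overlap, but the share of all genes with KO above WT and no overlap was not counted. With the length and GC adjustment the sign turned (−0.24, adjusted p = 0.0432), and the call was lost in 7 other alternatives. Those were no filter on low counts, the naive groups fitted alone, and leaving out naive WT replicate 1, 2 or 3 or naive KO replicate 2 or 4, with an adjusted p from 0.052 to 0.115. Rgs1, Rgs10, Rgs14 and Rgs19 had no call in any KO comparison, with changes between −0.30 and 0.12 log2 units and library ranges that overlapped in every state.

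Whether the KO effect differed between states was tested directly. No member passed, either for IL-15 minus naive, where 1.54% of all genes were called in either direction, or for lung minus naive, where 1.23% were, and no member had an unadjusted p under 0.05 or a call by DESeq2 or voom. The estimates for Rgs2 were −0.26 ± 0.19 and −0.14 ± 0.18 log2 units, for Rgs18 −0.20 ± 0.30 and 0.22 ± 0.39, and for Rgs16 0.18 ± 0.37 and −0.36 ± 0.33 (edgeR, adjusted p from 0.537 to 0.861).

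Rgs1, Rgs2, Rgs16 and Rgs18 lie on the chromosome that carries the targeted gene, so the KO calls were counted by distance from Fcer1g. Fcer1g itself was left out of these counts, but the 4 members were not. In the average over states, 22.5% of the 89 genes tested within 5 Mb were called lower and 20.2% higher. At 15 to 30 Mb, where the 4 members lie, 11% of 91 genes were called lower and 3.30% higher, beside 5.91% and 8.47% of the 13433 genes on other chromosomes. In naive spleen alone the same interval had 12.2% called lower and 13.4% higher, beside 9.06% and 11.1% on other chromosomes. In lung it had 1.19% each way, or 1 gene lower and 1 higher of 84, beside 0.259% and 0.234%. That lower gene was Rgs16 itself. Rgs18 was among the lower genes of the interval in naive spleen, and Rgs2 and Rgs18 were in the average over states. Of the 15 genes with KO below WT in all 3 states, 11 lie on chromosome 1, including Arpc5 at 18.5 Mb and Rgs2 at 27.2 Mb from Fcer1g. Whether position has a part in the Rgs2 or Rgs18 values was not tested.

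Immediate early genes moved with Rgs1 and Rgs2 in lung. Of 27 such genes, among them Nr4a1 and Klf6, 26 rose and 1 fell in WT lung over naive spleen, with a median of 2.66 log2 units against 0.08 over all genes, and 24 rose and none fell in KO lung. Their summed level ran from 2974 to 3934 CPM in WT and 3557 to 5786 CPM in KO when naive, and was 2448 to 3189 in the IL-15 groups and 17303 to 20425 in the lung groups. These genes can respond to cell isolation as well as to signals in the tissue; which of these they reflect here was not tested. Under IL-15 the list was split: 11 of the 27 genes rose in WT, as Rgs16 did, among them Egr2 by 2.60 ± 0.27 and Myc by 1.69 ± 0.12 log2 units (edgeR, adjusted p = 1.77e-07 and 1.84e-09). Another 12 fell, as Rgs2 did, among them Fos by 4.74 ± 0.26 (adjusted p = 4.21e-11). In KO 9 rose and 13 fell with IL-15. Beside these counts, IL-15 called 26.5% of all genes higher and 26.0% lower in WT, and 20.8% and 20.9% in KO. With calls that frequent, a shared direction says little about Rgs16 or Rgs2. Summed over the list, 7 of the 8 IL-15 libraries had sums below the lowest naive library, while Rgs16 was 65.1 CPM or more in all 8.

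**Figure D5:**
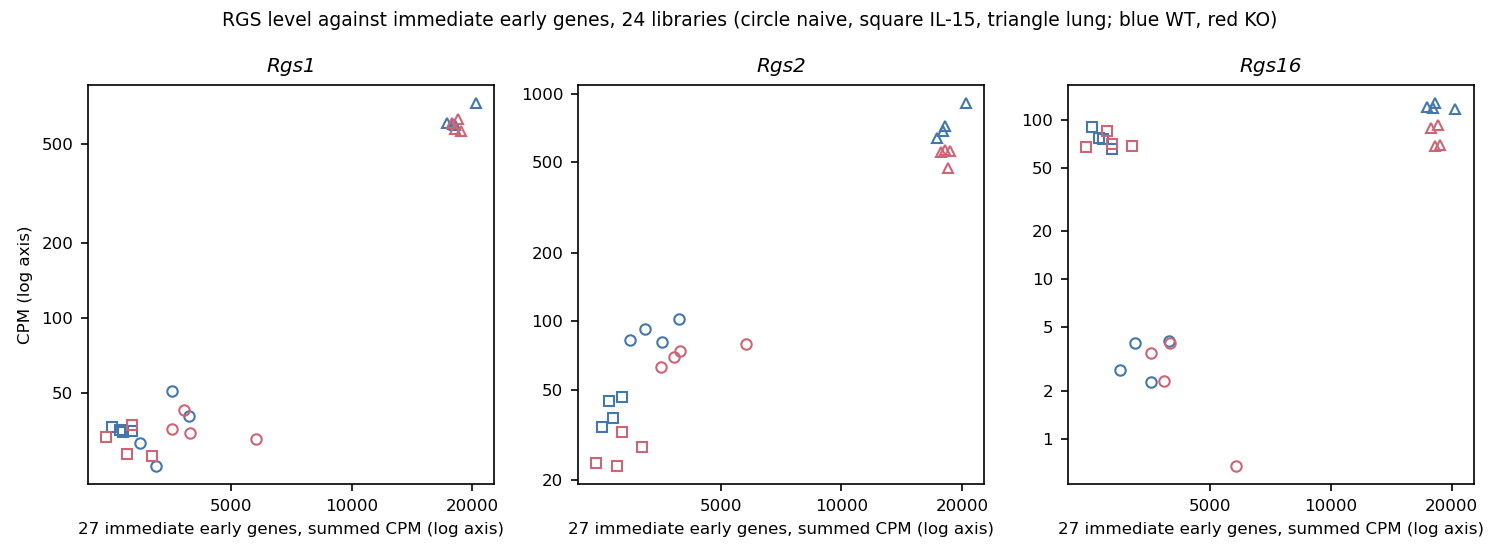
Level of Rgs1, Rgs2 and Rgs16 (vertical, CPM, log axes) against the summed level of 27 immediate early genes (horizontal, CPM, log axes) in 24 libraries. For Rgs1 and Rgs2 the 8 lung libraries stand apart at the upper right, and for Rgs16 the 8 IL-15 libraries are high at low immediate early sums.

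The genes most like each member across the 24 libraries followed the same grouping. By Pearson r of log2 CPM over 8970 genes, Rgs1 was closest to Nr4a1 (r = 0.990), an orphan nuclear receptor of the immediate early class, and Cldn5 (r = 0.989), a tight junction gene of endothelium that was at 0 CPM in all spleen groups and 23.4 and 10.2 CPM in lung WT and KO. Rgs2 was closest to the linker histone gene Hist1h1c (r = 0.990) and the transcription factor gene Klf6 (r = 0.988). Rgs16 was closest to Srsf6, a splicing factor gene (r = 0.963), and Akap9, which encodes an anchor for protein kinase A (r = 0.960). Rgs14 was closest to Jdp2 (r = 0.946) and Bbc3 (r = 0.931), and Rgs3 to Abca2 (r = 0.942) and Aff1 (r = 0.933). For Rgs10, Rgs18 and Rgs19 the best r was 0.862 (Coq5), 0.854 (Golga7) and 0.835 (Dnpep). The libraries fall into 3 states, and differences between states enter these values. Within groups, r was 0.430 for Rgs1 with Nr4a1, 0.173 with Cldn5 and 0.611 for Rgs2 with Hist1h1c. It was higher for some other pairs, at 0.861 and 0.862 for Rgs3 with Abca2 and Aff1. Rgs16 with Akap9 had 0.811 and Rgs10 with Coq5 had 0.774. By contrast, Rgs16 with Srsf6 had 0.286 and Rgs18 with Golga7 had 0.322. Rgs1 and Rgs2 themselves had r = 0.95 over all libraries and 0.08 within groups.

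Among the 12 other numbered Rgs genes in the table, 4 reached 1 CPM in any library (Rgs8, Rgs9, Rgs11 and Rgs12), and 3 had no count at all. Of the 11 genes tested from a list that also holds RGS-related names, 6 rose and none fell with IL-15 in WT, and 4 rose and 3 fell in KO. Over all genes, 26.5% were called higher and 26.0% lower in WT, and 20.8% and 20.9% in KO. Rgs12, a large multidomain regulator, rose with IL-15 from 3.89 ± 1.73 to 17.1 ± 1.80 CPM in WT (SD, n = 4), by 2.05 ± 0.29 log2 units (edgeR, adjusted p = 1.01e-05), and from 8.91 ± 3.57 to 20.8 ± 3.50 CPM in KO, by 1.18 ± 0.28 (adjusted p = 0.00253). It was also higher in naive KO than in naive WT, by 1.14 ± 0.29 (adjusted p = 0.0105). Rgs11, of the R7 subfamily best known from neurons, was at most 0.590 CPM in naive libraries and 4.35 to 20.1 CPM in IL-15 libraries, and rose in WT and KO (adjusted p = 6.06e-06 and 4.04e-05). Rgs8, the neighbour of Rgs16, stood at 1.21 to 4.24 CPM in the IL-15 libraries and at most 0.168 CPM in all others, including the lung libraries where Rgs16 was high. It rose with IL-15 in WT and KO (adjusted p = 3.43e-06 and 2e-05).

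The G proteins and receptors that RGS proteins act on were read from lists. The counts that follow stand beside 26.5% of all genes called higher and 26.0% lower with IL-15 in WT, and 29.2% and 19.9% in WT lung against naive spleen, and several are close to those shares. Gnai2, the main Gαi gene of lymphocytes, stood between 712 and 806 CPM in all 6 group means. Of 10 Gα genes tested, 1 rose (Gnaq, by 0.71 ± 0.15 log2 units) and 2 fell with IL-15 in WT, with Gnai3 falling by 0.87 ± 0.12 (edgeR, adjusted p = 0.000781 and 6.54e-06). In WT lung 6 of 11 rose and 1 fell, with Gna15 up by 1.33 ± 0.13 and Gnai3 down by 0.76 ± 0.11 (adjusted p = 7.39e-09 and 2.65e-06). Of 10 Gβ and Gγ genes, 2 rose and 4 fell with IL-15 in WT, and 2 rose and 2 fell in WT lung. Of 27 lymphocyte receptors coupled to G proteins, 4 rose and 13 fell with IL-15 in WT, and 8 rose and 12 fell in WT lung. The sphingosine 1-phosphate receptor gene S1pr5, which guides NK cell exit from tissues, fell with IL-15 from 446 ± 33.9 to 25.0 ± 4.66 CPM in WT (−4.24 ± 0.14 log2 units, adjusted p = 1.29e-13). The chemokine receptor gene Cxcr4 went the way of Rgs2: it fell with IL-15 in WT by 2.08 ± 0.23, from 117 ± 40.1 to 29.4 ± 3.74 CPM (adjusted p = 3.54e-07), and rose in WT lung by 2.04 ± 0.21, to 483 ± 113 CPM (adjusted p = 1.92e-08).

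The remaining parts of the pathway are read against the same shares. Of 14 receptor kinases, arrestins and G protein modulators, 3 rose and 4 fell with IL-15 in WT, and 7 of 15 rose and 2 fell in WT lung. Arrb1, the β-arrestin gene that uncouples receptors, rose with IL-15 from 51.6 ± 5.46 to 238 ± 51.3 CPM in WT, by 2.12 ± 0.16 log2 units (edgeR, adjusted p = 2.14e-09). Gpsm2, a Gαi binder of the spindle machinery, rose by 4.36 ± 0.22 (adjusted p = 1.27e-11), and the 10 markers of dividing cells moved with it, as given above. Neither was called in WT lung against naive spleen (adjusted p = 0.345 and 0.318). Of 16 effectors, 7 rose and 3 fell with IL-15 in WT, with Rasgrp2 down by 2.65 ± 0.14 (adjusted p = 2.12e-11), and 11 of 17 rose and 1 fell in WT lung. In KO against WT, naive spleen held the edgeR calls of these lists, as it held most calls over all genes (11.1% higher and 9.21% lower). There 6 of 16 effectors rose and none fell, 1 of 10 Gα genes rose and 2 fell, and 1 of 10 Gβ and Gγ genes rose and 3 fell. Of 14 receptor kinases, arrestins and modulators 2 rose and 2 fell, and of 27 receptors 2 rose and 2 fell, with Cxcr4 falling by 0.79 ± 0.22 (adjusted p = 0.0158). Of the 77 genes tested from these 5 lists, 0 were called by edgeR for KO against WT either under IL-15 or in lung, with 3 and 10 at an unadjusted p under 0.05; DESeq2 and voom each called 1 in either state.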

How the data were processed

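RNA from NK cells was measured as poly(A) RNA, per the labels' protocols, from libraries of a strand-marking NEBNext kit. The authors deposited expected counts per gene for 38215 genes in 24 libraries. The submitters' processing notes name RSEM 1.2.30, STAR 2.5.2a, cutadapt 1.9 and the GRCm38 build; the settings are not stated there. Rounding to whole numbers touched 5.47% of the values.

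The comparisons used edgeR 4.0.16 in R 4.3.3, with the filterByExpr filter, TMM scaling, a robust quasi-likelihood F test and Benjamini-Hochberg adjustment over all genes tested in a comparison, called at an adjusted p under 0.05. The 16 spleen libraries, the 8 lung libraries and all 24 libraries were fitted separately, the last for lung against spleen and for contrasts over states. Standard errors come from the change and its F value (change over the square root of F). CPM values use TMM totals, and per kb they use the main GENCODE M21 transcript. Log2 CPM for likeness used a prior count of 2 and genes with a mean of at least 5 CPM. The test was checked on simulated data.

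Named genes were the 8 members, Fcer1g, the 2 genes with the highest Pearson r to each member, and up to 2 called genes per pathway list; part of these are printed, and Cxcr4, Gnai2, Arpc5 and the other RGS genes were picked after their values were seen. The members and lists were chosen with earlier results of these data known. As alternatives, the comparisons were repeated with DESeq2 1.42.0, edgeR on DESeq2 size factors, limma 3.58.1 voom with library weights, no filter, a filter of 1 CPM in 4 libraries, an offset on exon length and GC content, other sets of fitted libraries, blocks by replicate or library number, and each library left out. Promoter windows were cut at the start, so bases after it were not searched. Protein sequences were not used here. Samples with the same replicate number were not paired.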

Additional observations from a re-analysis of the deposited data

Results flagged for a closer look

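In 48 checks of a member within a group of 4 libraries, 4 values stood apart from the other 3 by a Dixon test at its 95% level, and chance gives about 1 in 20. Rgs1 was 729 CPM in lung WT replicate 1, the shallow library, against 593 to 605 CPM in the others. Rgs2 was 473 CPM in lung KO replicate 2, against 553 to 564 CPM. Rgs16 was 84.7 CPM in IL-15 KO replicate 2, against 67.9 to 70.5 CPM. Rgs19 was 46.5 CPM in IL-15 KO replicate 4, against 49.3 to 49.6 CPM.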

How the results depend on the processing

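The number of members called changed with some settings. KO against WT in naive spleen called 2 members, and 1 with no filter, with the length and GC offset or with the naive groups alone (1 to 2 with single libraries left out). Under IL-15 it called 0, but 1 with DESeq2 size factors or the stricter filter and 2 with DESeq2 or voom (0 to 1). In lung it called 1, but 2 with DESeq2 or without lung WT replicate 1, the only shallow library in that fit. It called 0 with all 24 libraries fitted or with the replicate block (0 to 2). IL-15 against naive in KO called 2, and 4 with the offset (2 to 3). Single libraries left out gave 4 to 5 members for IL-15 against naive in WT, 7 to 8 and 5 to 6 for lung against naive spleen in WT and KO, 5 to 6 and 3 to 4 for lung against IL-15 spleen, 3 to 4 for the average over states and 0 for both interactions. Rgs3 turned sign with the offset: −0.24 in naive KO, −0.59 under IL-15 in WT, −0.59 and −0.44 in lung of WT and KO, and −0.12 on the average over states (adjusted p = 0.0432, 2.03e-06, 7.59e-07, 6.09e-05 and 0.107); the cause was not tested. The state calls of Rgs1, Rgs2 and Rgs16 named above held in every alternative run, except that Rgs16 in KO lung was not called against IL-15 spleen in any; the average KO effects of Rgs2 and Rgs18 held in all 32.

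Over all genes, KO against WT in lung called 82, but 314 with DESeq2, 268 with voom, 142 with the offset, 500 without lung WT replicate 1 and 42 to 49 without lung WT replicate 2 or lung KO replicate 2, 3 or 4. In naive spleen it called 2707, and 1733 without naive WT replicate 3. Under IL-15 it called 18, but 30 with DESeq2 and 54 with voom. The interactions called 206 and 175, but 692 and 520 with DESeq2 and 1320 and 502 with voom. With all 24 libraries the IL-15 interaction called 375, and with a block by library number 0; the lung interaction called 104 with no filter and 71 with the compared groups alone. The average over states called 2074, and 1286 with the offset. Libraries with the same replicate number correlated from −0.19 to 0.25. No comparison had more than 1 of 4 such pairs above 0.1, so the replicate block says little. Beyond the lung call of Rgs16 that block moved no member count by more than 1.5 times. Naive and IL-15 libraries of a genotype share the number in their names for replicates 1 to 3 but not for replicate 4. The check thus mixed both kinds of pair, and whether shared numbers mean a shared source is not known here. Of the most alike genes, few stayed in the top 2 by Spearman and none within groups. Depth limits Rgs10, Rgs16 in naive spleen and Rgs18, which rest on as few as 32, 7 and 26 counts.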
